A study of Rattus norvegicus with 172 samples.

Results

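The comparison concerns the stretch of rat spinal cord just below a surgical gap, 30 days after the operation. It sets animals bridged with a chitosan tube seeded with NT-3-chitosan carriers (the NT-3 tube) against animals bridged with an empty chitosan tube (the tube alone). Its members were the 6 arrays whose titles name the caudal segment, day 30 and 1 of these 2 arms, 3 arrays per arm, of 172 arrays in the series. All animals were female Wistar rats aged 2 months and weighing 250 to 300 g. In every operated animal the cord had been cut at T7-8 and 5.0 mm of it removed, so the tube alone arm had the same lesion and a chitosan tube with neither the factor nor its carriers. A further arm, the lesion control, had the same removal and no implant (3 caudal arrays at day 30), and 3 arrays came from normal cord. Each array measured RNA from a pooled 5 mm segment of 4 animals, dissected with dura and meninges, on an Affymetrix rat genome expression array. The replicates are thus pools: p-values measure the spread between pools, not between animals.

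NT-3 (neurotrophin-3, gene Ntf3) is a secreted growth factor that signals mainly through the receptor tyrosine kinase TrkC (Ntrk3), and all neurotrophins also bind p75NTR (Ngfr). In the cord it is known for its actions on proprioceptive sensory neurons, motor neurons, corticospinal axons and oligodendrocyte precursors. Below a complete transection the cord loses its descending axons, microglia and infiltrating macrophages clear the degenerating myelin, astrocytes become reactive, and fibroblasts of meninges and vessels lay down a collagen-rich scar. Chitosan is a polysaccharide made from chitin and is used as a degradable implant material. The factor was delivered as protein, so an expression array can show the tissue's own transcripts but not the NT-3 that the carrier held.

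Values are log2 intensities as deposited, normalized by RMA, and 1 unit is a doubling. Each gene is represented by 1 probe set, and 11479 genes were bright enough in at least 1 group to be tested with limma, the threshold being a Benjamini-Hochberg adjusted p of 0.05. The tissue carried the markers of injured cord: all 5 astrocyte, all 4 measured oligodendrocyte, all 6 microglia and macrophage and 6 of 7 neuron markers were above the dimness limit of 6.55 on all 6 arrays, the exception being Syt1. Skeletal muscle and bone, which a dissection can pick up, were near absent, with 5 of 6 muscle markers and all 4 cartilage and bone markers below that limit on all 6 arrays. The lysosomal macrophage gene Cd68 lay between 11.16 and 11.56 on the 6 arrays against 6.50 to 6.56 in normal cord.

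Some arrays stood apart. Tube alone replicate 3 differed by more than 1 log2 unit from the mean of the other tube alone arrays in 127 genes, 110 of them lower on it, against 44 and 60 genes for tube alone replicates 1 and 2 and 11 to 17 for the NT-3 arrays. The largest fall was in Xist, at 8.35 on tube alone replicate 3 and 11.13 and 10.94 on the other tube alone arrays. Creb5 read 6.62 against 9.06 and 9.22, and the kinesin gene Kif5c 6.96 against 9.56 and 9.70. The neuronal splicing factor Rbfox3 read 6.98 against 8.89 and 9.03. Other neuron markers fell less: Elavl4 read 8.33 against 8.92 and 8.85, and Map2 11.97 against 12.36 and 12.30. Nefl read 13.20 against 13.44 and 13.37, and Snap25 13.29 against 13.36 and 13.45. Tube alone replicate 1 carried markers of sensory ganglion neurons: the mean of the 5 measured markers was 8.12 on it and 6.43 to 6.52 on the other 5 arrays, and the ganglion gene Avil read 9.88 against 7.44 to 7.67. So did lesion control replicate 1 of the same segment and day, with a mean of 8.13 and Avil at 9.96. The correlation between arrays was 0.9888 to 0.9935 within the NT-3 arm, 0.9818 to 0.9896 within the tube alone arm and 0.9781 to 0.9897 between the arms.

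Few genes passed the test between the arms below the gap: 6 of 11479 (0.0523%), 2 higher and 4 lower with the NT-3 tube. The genes lower with the NT-3 tube were Pkd2, Hmcn1, Ubtd2 and F2r, and those higher were Phgr1 and Krt71. Their differences ran from 1.32-fold (F2r) to 2.36-fold (Hmcn1). At an unadjusted p under 0.05 there were 1426 genes, 516 higher (4.5%) and 910 lower (7.93%), and the median difference over all genes tested was -0.02. The lean toward lower genes reversed without tube alone replicate 3, to 672 higher and 595 lower. The central 95% of genes lay between -0.40 and 0.31, and the median half-width of a gene's 95% interval was 0.24.

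**Figure D1:**
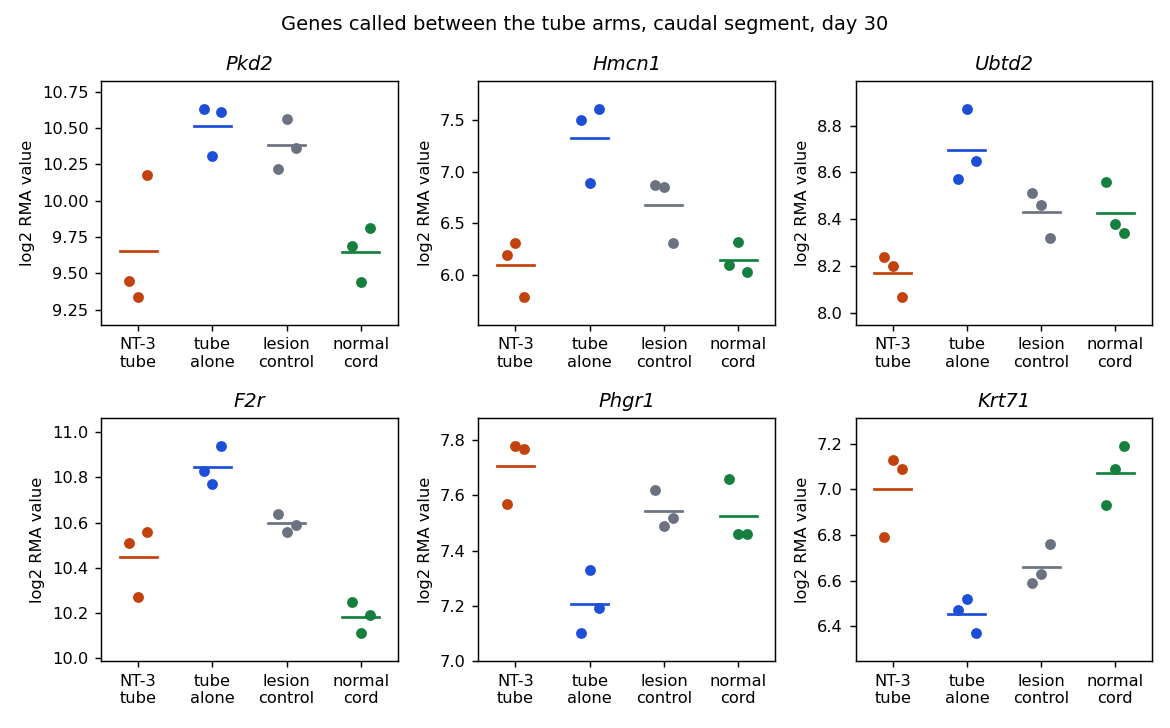
Log2 RMA values of the 6 genes that passed the test, for the 3 arrays (points) and their mean (line) in each of 4 groups; caudal segment at day 30 for the NT-3 tube, tube alone and lesion control arms, and normal cord. The vertical axes do not start at 0 and differ between panels. In each gene the 3 NT-3 arrays lie on one side of the 3 tube alone arrays, with the lesion control mean between both arm means.

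Pkd2 encodes polycystin-2, a calcium-permeable cation channel of cilia and the endoplasmic reticulum. It read 9.45, 9.34 and 10.18 on the NT-3 arrays and 10.63, 10.31 and 10.61 on the tube alone arrays. The arms did not overlap, though NT-3 replicate 3 lay close to the lowest tube alone array. The difference was -0.86 (SE 0.16; limma adjusted p = 0.0152). The NT-3 arrays were near normal cord (9.69, 9.44 and 9.81), and the tube alone arrays near the lesion control (10.22, 10.56 and 10.36). The fall belongs to probe set 1382021_at; the second Pkd2 probe set, 1379209_at, was dimmer and went the other way by 0.16, so the gene-level direction depends on the probe set.

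Hmcn1 encodes hemicentin-1, a very large extracellular matrix protein of basement membranes. Its values were 6.19, 6.31 and 5.79 with the NT-3 tube and 7.50, 6.89 and 7.61 with the tube alone. The NT-3 pools read as low as normal cord (6.10, 6.32 and 6.03), while lesion control lay between (6.87, 6.85 and 6.31). The difference of -1.24 (SE 0.26; limma adjusted p = 0.0441) was the only one of the 6 that reached 2-fold.

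F2r encodes protease-activated receptor 1, the main receptor for thrombin. It read 10.51, 10.27 and 10.56 on the NT-3 arrays and 10.83, 10.77 and 10.94 on the tube alone arrays. Every operated array lay above normal cord, whose values were 10.25, 10.11 and 10.19, and the NT-3 arrays were the lower of the 2 tube arms. The difference was -0.40 (SE 0.08; limma adjusted p = 0.0290).

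Ubtd2, which encodes a ubiquitin-like domain protein, read 8.24, 8.20 and 8.07 with the NT-3 tube and 8.57, 8.87 and 8.65 with the tube alone. Its NT-3 values lay below normal cord too, where it read 8.56, 8.38 and 8.34. The difference was -0.53 (SE 0.11; limma adjusted p = 0.0290). A second, dimmer Ubtd2 probe set differed by -0.03 between the arms.

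Phgr1, a small protein best known from gut epithelium, read 7.57, 7.78 and 7.77 with the NT-3 tube and 7.10, 7.33 and 7.19 with the tube alone. The means of lesion control (7.62, 7.49 and 7.52) and normal cord (7.66, 7.46 and 7.46) lay between both arm means, closer to that of the NT-3 arrays. The difference was 0.50 (SE 0.10; limma adjusted p = 0.0209).

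Krt71, a keratin of the hair follicle's inner root sheath, read 6.79, 7.13 and 7.09 with the NT-3 tube and 6.47, 6.52 and 6.37 with the tube alone. Normal cord lay with the NT-3 arrays at 6.93, 7.09 and 7.19, and lesion control read 6.59, 6.63 and 6.76, nearer the tube alone arrays. The difference was 0.55 (SE 0.11; limma adjusted p = 0.0290), and all values sat close to the dimness limit.

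The calls depended on which arrays entered the fit. Fitted on the 6 arrays alone, limma called 0 genes (1503 at an unadjusted p under 0.05), and leaving out 1 array at a time left 3, 0 or 3 calls without NT-3 replicate 1, 2 or 3 and 1, 24 or 13 without tube alone replicate 1, 2 or 3. Without tube alone replicate 3, the array that stood apart, Phgr1, Pkd2 and Ubtd2 were among the 13. When arrays were weighted by their agreement with their group, 1051 genes passed, 456 higher (3.97%) and 595 lower (5.18%), including all 6; NT-3 replicate 2 had a weight of 3.09 and tube alone replicate 3 a weight of 0.43.

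Beside these 6, the genes with the largest differences whose arms did not overlap are described next, and none passed the adjusted test. Among the lower ones Stra6, the cell-surface receptor that takes up vitamin A from retinol-binding protein, had the largest difference, at -1.68 (limma adjusted p = 0.0951). It read 6.29, 6.52 and 6.02 with the NT-3 tube, 7.34, 8.02 and 8.52 with the tube alone, and 7.27, 6.80 and 6.62 in lesion control. Siglec5, a sialic-acid-binding lectin of myeloid cells, read 5.51, 5.85 and 5.79 against 7.39, 7.77 and 6.20. The difference was -1.40 (limma adjusted p = 0.0562), and it was called without tube alone replicate 3, at -1.86. Its lesion control arrays (5.48, 5.74 and 5.37) lay with the NT-3 arrays, and normal cord (7.42, 6.46 and 7.28) with the tube alone arrays. Stra6 and Siglec5 were below the dimness limit on every NT-3 array, and Siglec5 also on tube alone replicate 3.

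The water channel gene Aqp1 (-1.36), Esm1 for the endothelial proteoglycan endocan (-1.23), and Lox for lysyl oxidase, which cross-links collagen (-1.20), were each lower in all 3 NT-3 arrays than in any tube alone array. Esm1 read 7.94, 7.97 and 7.60 with the NT-3 tube and 9.09, 8.62 and 9.49 with the tube alone. Normal cord read 6.02, 5.59 and 6.38, so both tube arms were above it. The calcium-binding protein gene S100a6 read 11.60, 11.29 and 10.78 against 12.28, 12.08 and 12.47. Ccl2, the main chemoattractant for monocytes, read 8.44, 8.07 and 8.08 against 9.45, 8.98 and 9.22. Their limma adjusted p were 0.0713 (Aqp1 and Esm1), 0.172 (Lox), 0.198 (S100a6) and 0.298 (Ccl2). The matrix-degrading enzyme gene Mmp3 differed by -1.09, a value that 1 array made: tube alone replicate 1 read 7.80 and the other 5 arrays 5.01 to 5.38.

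Among the higher ones, Ccn1, a matrix-associated signalling protein induced early by growth factors and stretch, read 8.87, 9.42 and 8.30 with the NT-3 tube and 7.08, 7.85 and 8.12 with the tube alone. The difference was 1.18 (limma adjusted p = 0.237), and lesion control (8.28, 8.86 and 8.85) lay with the NT-3 arrays. Depp1, a target of FOXO transcription factors, read 8.88, 9.75 and 8.44 against 7.89, 8.05 and 7.78, a difference of 1.12 (limma adjusted p = 0.118). Lesion control again lay with the NT-3 arrays, at 8.71, 9.46 and 9.03. Spp1, which encodes osteopontin, a phagocyte and scar protein, was one of the brightest signals: it read 13.37, 13.52 and 13.37 against 12.84, 13.02 and 12.74, a difference of 0.55 (limma adjusted p = 0.250).

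The other higher genes that did not pass had differences between 0.55 and 0.63. They were the lymphocyte signalling genes Tagap (0.58) and Rgs1 (0.55), the mTORC1 inhibitor Ddit4 (0.55), the lipid kinase gene Pi4k2a (0.58), the histone mRNA-binding protein gene Slbp (0.58), the Polycomb subunit gene Suz12 (0.58) and LOC102555617 (0.63). LOC102555617 read 5.17 to 6.45 on the 6 arrays, below the dimness limit. Rgs1 and Tagap belong mainly to leukocytes. Both were low in normal cord, at 4.54 to 4.92 for Rgs1 and 4.52 to 5.67 for Tagap, while the 6 arrays of the tube arms read 8.00 to 8.92 and 6.88 to 7.62.

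**Figure D2:**
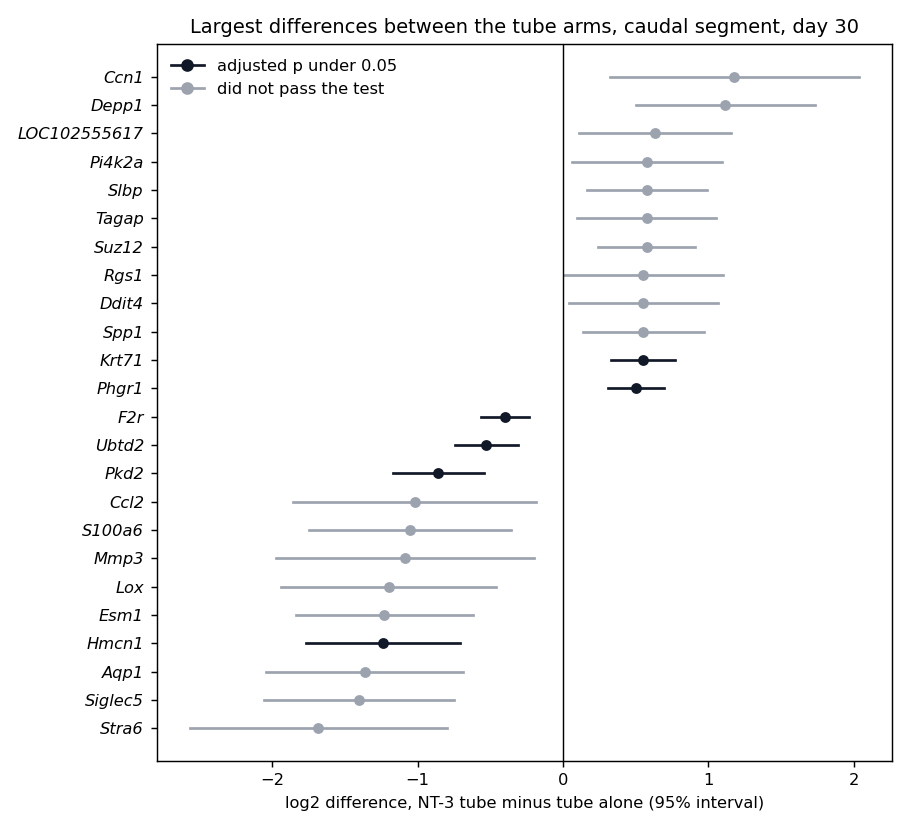
Log2 difference (NT-3 tube minus tube alone, caudal, day 30) with its 95% interval for the 24 genes named by the rule: black for the 6 that passed the limma test, grey for 18 that did not. The genes with the largest differences, such as Stra6 at -1.68, have wider intervals than called genes such as F2r at -0.40.

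The gene lists used below name 883 distinct genes, of which 636 were tested. None passed the adjusted test, 69 had an unadjusted p under 0.05, and the smallest adjusted p was 0.0666, for Spry4. Unless stated, counts of list members below the gap are therefore at the unadjusted level. They are read against the backgrounds of 4.5% higher and 7.93% lower. Those above the gap are at a limma adjusted p under 0.05, with their own backgrounds. Counts without tube alone replicate 3 are read against the 672 higher and 595 lower of 11479 genes in that fit.

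Fibroblast and fibrillar matrix genes had the lowest median of the 43 lists. Of 31 tested, 29 had a negative difference, 12 were lower at an unadjusted p under 0.05 and 0 higher, and the median was -0.51 against -0.02 for all genes. In 11 of the 31 the 3 NT-3 arrays all lay below the 3 tube alone arrays, where 12.2% of all genes did so and 7.04% lay above. Examples picked after their values were seen are the collagen genes Col5a2 and Col12a1. Col5a2, a chain of the type V collagen that sets fibril diameter, read 10.26, 10.16 and 10.17 with the NT-3 tube and 11.07, 10.58 and 11.16 with the tube alone, a difference of -0.74 (SE 0.25; limma adjusted p = 0.201). Col12a1 read 8.75, 8.15 and 8.33 against 9.47, 8.94 and 9.58. Col1a1, the type I collagen chain, overlapped between the arms by 1 array, at 10.20, 9.29 and 9.31 against 10.90, 10.07 and 11.19.

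Averaged over the list, the matrix genes stood 1.43, 1.16 and 1.08 log2 units above normal cord on the NT-3 arrays and 1.90, 1.40 and 1.97 above it on the tube alone arrays. Lesion control lay at 1.70, 1.60 and 1.38. The arms overlapped, because tube alone replicate 2 was lower than NT-3 replicate 1, and both arms overlapped lesion control. The list's median stayed between -0.78 and -0.42 when 1 array was left out. Without tube alone replicate 3 it was -0.42, with 7 members lower and 1 higher at an unadjusted p under 0.05. The median was -0.50 after a second quantile normalization, and 9 members passed the adjusted test with array weights, all lower. The 4 fibroblast markers, Col1a1, Col3a1, Dcn and Lum, had a summed level of 13.55 to 13.83 on the NT-3 arrays and 13.89 to 14.69 on the tube alone arrays. Lesion control was at 13.88 to 14.24. The means of their log2 values overlapped between the tube arms, with NT-3 replicate 1 at 11.635 and tube alone replicate 2 at 11.617. In bulk tissue, fewer cells of a type and less RNA per cell cannot be told apart, and how much meninges each dissection carried was not tested.

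Genes of meninges and perivascular fibroblasts had a median of -0.36 over 15 tested, with 4 lower at an unadjusted p under 0.05. These were the forkhead factor gene Foxc1 (-0.61), the growth factor-binding protein gene Igfbp6 (-0.75), the matrix Gla protein gene Mgp (-0.59) and Islr (-0.69). Without tube alone replicate 3 the list had 1 lower and a median of -0.24, and with array weights 1 member passed the adjusted test. The 2 anion transporters of meninges and choroid plexus, Slc22a6 (0.19) and Slc22a8 (0.11), were not lower. The 10 alternatively activated macrophage genes had a median of -0.24 with 0 lower and 1 higher, and the 4 tested adipocyte genes a median of -0.36 with 1 lower.

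**Figure D3:**
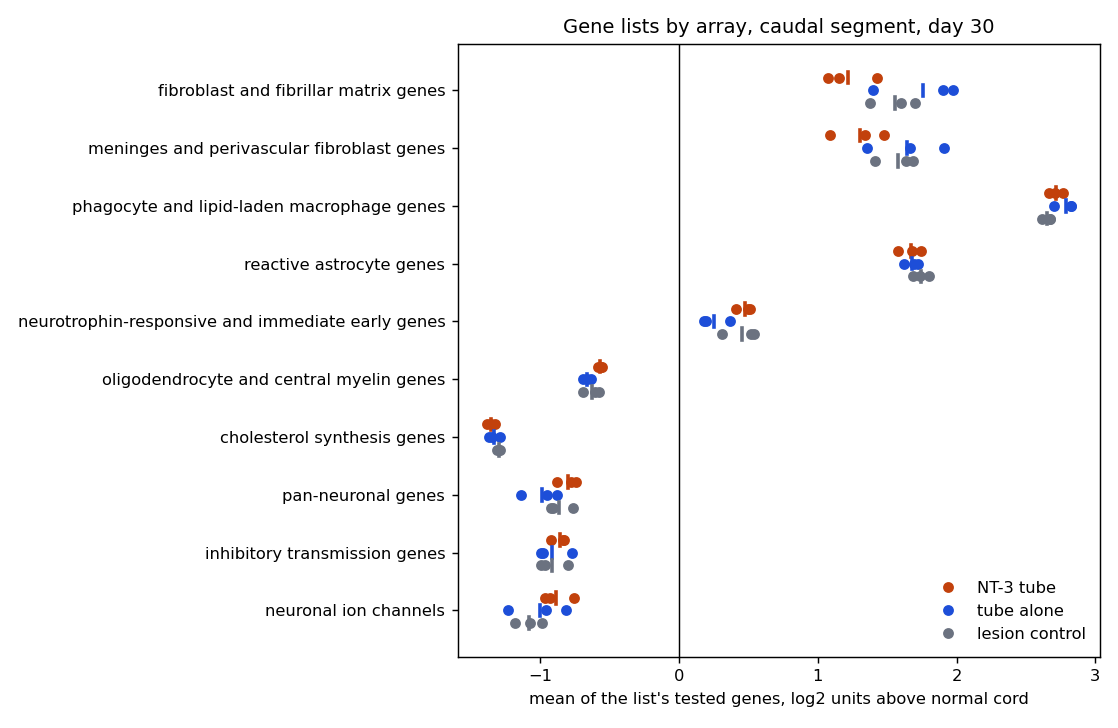
Mean of each list's tested genes on each caudal day 30 array (points), in log2 units above the mean of normal cord, for 3 arms of 3 arrays each; short vertical lines are arm means. The matrix list separates the arm means most (NT-3 arrays 1.08 to 1.43, tube alone 1.40 to 1.97), while phagocyte, reactive astrocyte, myelin and neuronal lists lie close together.

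The neurotrophin genes themselves did not differ past the threshold. Ntf3 was below the dimness limit on all 6 arrays and in normal cord, with 4.68, 4.76 and 4.86 on the NT-3 arrays, 4.62, 4.93 and 4.72 on the tube alone arrays and 4.96, 4.69 and 4.69 in normal cord, and was not tested. Ntf4 was as dim (4.58 to 4.75 on the 6 arrays). Bdnf, for brain-derived neurotrophic factor, read 5.97, 5.91 and 6.27 against 6.20, 5.94 and 5.80, a difference of 0.07 with a 95% interval from -0.29 to 0.43. Both arms were below normal cord (6.70 to 6.97).

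Among the receptors, Ntrk3, for TrkC, read 7.12, 6.84 and 6.96 with the NT-3 tube and 7.26, 7.15 and 5.75 with the tube alone. The positive mean difference of 0.25 came from tube alone replicate 3, since the other tube alone arrays were the highest of the 6 (limma adjusted p = 0.717). Ntrk2, for the BDNF receptor TrkB, read 11.53, 11.51 and 11.51 against 11.50, 11.49 and 11.86. Ngfr, for p75NTR, read 6.42, 5.92 and 5.91 against 7.14, 6.77 and 6.05, a difference of -0.57 (limma adjusted p = 0.454). Of the 16 tested genes of neurotrophin ligands, receptors and adaptors, 1 was higher and 2 lower at an unadjusted p under 0.05: the adaptor genes Shc3 (0.24) and Frs2 (-0.26) and the GDNF co-receptor gene Gfra1 (-0.20).

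Immediate early genes and feedback genes that growth factors induce had a median of 0.23 over 17 tested, and 5 were higher at an unadjusted p under 0.05 with 0 lower. They were Spry4 and Dusp1, feedback inhibitors of receptor tyrosine kinase and MAP kinase signalling, Nr4a1, Etv5 and Arc. Spry4 read 8.03, 8.16 and 8.20 with the NT-3 tube and 7.72, 7.74 and 7.79 with the tube alone. The arms were well apart for their small spread, and the difference was 0.38 (SE 0.09; limma adjusted p = 0.0666).

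Dusp1 overlapped between the arms, with 10.50, 10.91 and 10.13 against 9.10, 9.74 and 10.34. Per array, the list stood 0.49, 0.51 and 0.41 above normal cord with the NT-3 tube, 0.18, 0.20 and 0.37 with the tube alone, and 0.31, 0.54 and 0.52 in lesion control. The tube alone arm had the lowest mean and overlapped lesion control. The list's median lay between 0.18 and 0.28 when 1 array was left out. On the neighbouring days its caudal median had the other sign, -0.08 at day 20 and -0.22 at day 60. Above the gap at day 30 it was 0.07.

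Neuronal genes had mostly positive differences, and none passed the test. Of 18 tested pan-neuronal genes 17 had a positive difference, the median was 0.16, and 0 had an unadjusted p under 0.05. Their mean lay 0.75 to 0.88 below normal cord on the NT-3 arrays and 0.88 to 1.14 below it on the tube alone arrays, the lowest being tube alone replicate 3. Uchl1, an abundant neuronal ubiquitin hydrolase gene, read 12.09, 11.90 and 11.79 against 11.56, 11.55 and 11.76. Rbfox3 read 9.22, 8.36 and 8.98 against 8.89, 9.03 and 6.98, so its mean difference of 0.55 rested on tube alone replicate 3. Without that array the list's median was 0.11.

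Of 13 neuronal ion channel genes 3 were higher at an unadjusted p under 0.05. Without tube alone replicate 3, 2 were higher and 1 lower. The list's median was 0.12 with all arrays and 0.04 without that one. The 3 higher with all arrays were the calcium channel gene Cacna1a (0.23), the pacemaker channel gene Hcn2 (0.30) and Kcnq3 (0.32). The medians of inhibitory transmission genes (0.08 over 13), glutamatergic transmission genes (0.03 over 16), motor neuron and cholinergic genes (-0.03 over 10) and regeneration-associated genes (0.02 over 23) were near 0, each with 0 members at that level. The 12 dorsal horn and sensory ganglion genes had a median of -0.05. Relative to normal cord, tube alone replicate 1, which carried ganglion markers, was at 0.33 and the other 5 arrays at -0.32 to -0.08. Lesion control replicate 1, which also carried them, was at 0.40.

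Median differences of the glial, microglia and phagocyte lists were small. Oligodendrocyte and central myelin genes had a median of 0.09 over 18, 14 of them positive, and the list lay 0.55 to 0.58 below normal cord with the NT-3 tube and 0.64 to 0.69 below with the tube alone, without overlap between the arms. Single members differed by little: Mbp, for myelin basic protein, read 14.64, 14.68 and 14.73 against 14.67, 14.65 and 14.57, and Mag, for an inhibitory myelin glycoprotein, 11.82, 11.70 and 11.66 against 11.37, 11.47 and 11.63. One member, the sulfatide-synthesis gene Gal3st1, was higher at an unadjusted p under 0.05 (0.23).

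Reactive astrocyte genes stood 1.58 to 1.74 above normal cord with the NT-3 tube and 1.62 to 1.72 with the tube alone, with a median difference of -0.02. Phagocyte and lipid-laden macrophage genes stood 2.67 to 2.77 and 2.70 to 2.83 above it, with a median difference of 0.01 over 26. Resident microglia (0.01 over 11), complement (-0.08 over 13), MHC class II (0.07 over 10) and cytokine and chemokine genes (0.03 over 26) had medians near 0. Members ranged more widely, though none passed the adjusted test. Differences ran from -0.66 to 1.42 among reactive astrocyte genes, the latter, with overlapping arms, being the largest rise of all genes tested. They ran from -1.28 to 0.55 among phagocyte genes and from -1.48 to 0.55 among cytokine and chemokine genes. The neutrophil and mast cell list had the highest of the myeloid medians, 0.32 over 9 tested, with 7 positive and 0 past an unadjusted p of 0.05. It stood 0.84, 0.45 and 0.51 above normal cord on the NT-3 arrays, 0.12, 0.09 and 0.49 on the tube alone arrays and 0.74, 1.25 and 1.32 in lesion control, so the tube arms overlapped through tube alone replicate 3. The 9 tested T, B and natural killer cell genes had a median of 0.24, 2 of them higher at an unadjusted p under 0.05 (0 higher and 1 lower without tube alone replicate 3). The summed level of the 5 lymphocyte markers was 8.54 to 8.73 on the NT-3 arrays and 8.30 to 8.49 on the tube alone arrays, with Cd3d, Cd79b and Ms4a1 below the dimness limit on all 6. Cholesterol synthesis genes lay 1.33 to 1.38 and 1.29 to 1.37 below normal cord, with a median difference of -0.01 over 21.

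Against lesion control, limma called 0 of 11479 genes for the NT-3 tube (0%; 1009 at an unadjusted p under 0.05) and 1 for the tube alone (0.00871%; 1104 unadjusted), Rab23, a small GTPase of ciliary signalling, at -0.56 (limma adjusted p = 0.0246). These contrasts share arrays with the one above. The tube alone arrays read 7.65, 7.29 and 7.63 for Rab23, below lesion control at 7.85, 8.21 and 8.18, and the NT-3 arrays 7.78, 7.92 and 7.63. For the matrix list the median was -0.35 for the NT-3 tube and 0.19 for the tube alone, each against lesion control. For Pkd2 both differences from lesion control were -0.72 and 0.14, in the same order, and for Hmcn1 -0.58 and 0.66. Without tube alone replicate 3, the tube alone count against lesion control was 119, and without any other array of that pair it was 0 or 3.

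Above the gap, the same comparison at day 30 called 2264 of 11553 genes, 1589 higher with the NT-3 tube (13.8%) and 675 lower (5.84%). After a second quantile normalization the split was 1110 higher and 933 lower. The count fell to 657 and 802 without rostral tube alone replicate 2 or 3 and to 969 and 1154 without rostral NT-3 replicate 2 or 3. Of the 6 genes called below the gap, Pkd2 (-0.997), Hmcn1 (-1.94) and Ubtd2 (-0.38) also passed above it, with limma adjusted p of 3.8e-05, 0.000386 and 0.0153, while F2r (-0.10), Phgr1 (0.05) and Krt71 (0.16) did not. The matrix list fell above the gap, with 22 of 31 lower at a limma adjusted p under 0.05, against 5.84% of all genes. Its median was -1.08. The list's mean above normal cord was 1.83, 1.68 and 1.39 with the NT-3 tube and 2.57, 2.74 and 2.41 with the tube alone. Pan-neuronal genes had 11 of 18 higher at that threshold, against 13.8% of all genes, and a median of 0.41 there. These counts are at a stricter threshold than the unadjusted ones below the gap.

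For the 13 of 22 muscle genes lower above the gap at the adjusted threshold, 1 array stood out. Rostral tube alone replicate 3 was 3.44 above normal cord for the 16 muscle genes tested caudally. The other rostral tube alone arrays stood at 0.08 and -0.16, and the caudal arrays of both arms at -0.34 to -0.13.

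**Figure D4:**
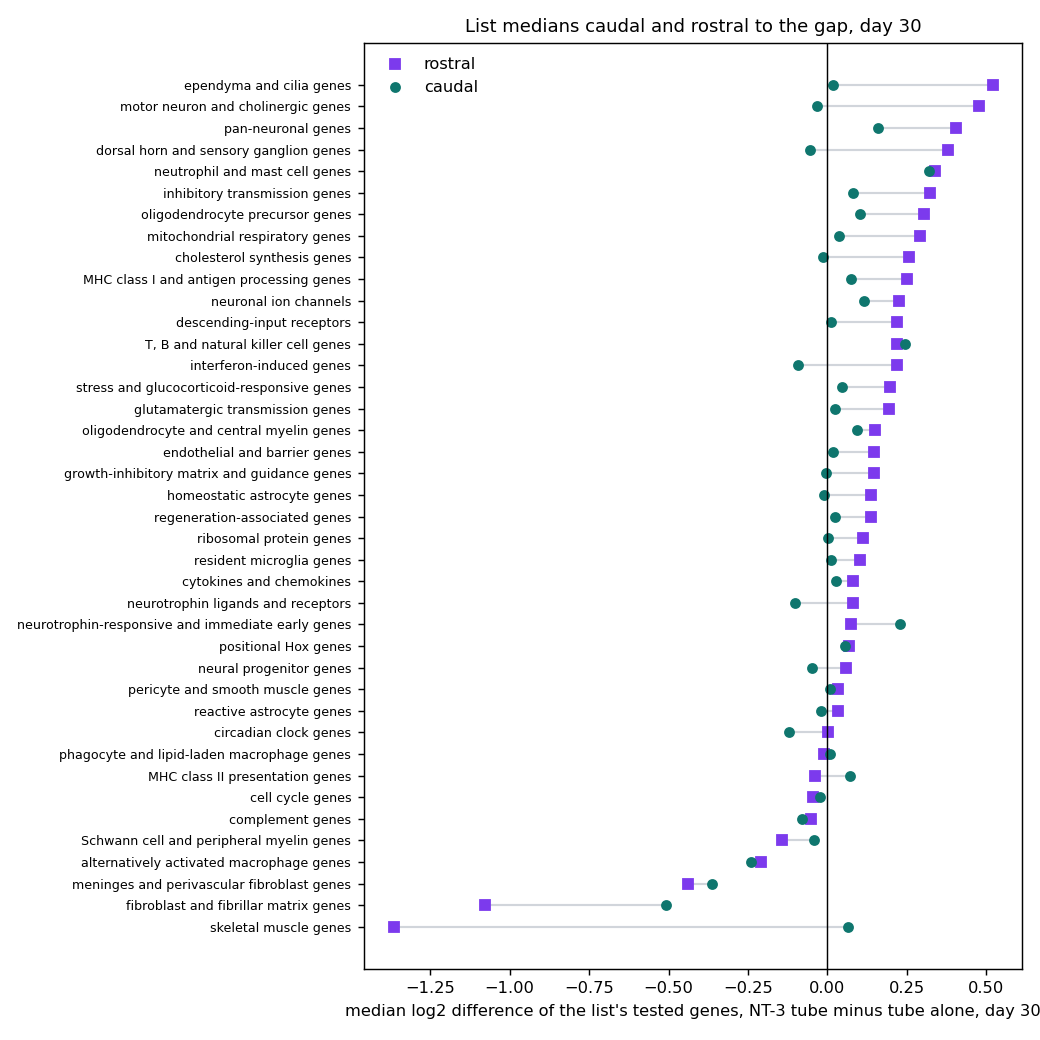
Median log2 difference, NT-3 tube minus tube alone at day 30, of each list with at least 8 tested genes, caudal (circles) and rostral (squares) to the gap. The matrix list is at -0.51 caudally and -1.08 rostrally, the pan-neuronal list at 0.16 and 0.41; for the muscle median of -1.37, 1 of the 3 rostral tube alone arrays stood 3.44 above normal cord.

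Whether the effect differed between the segments was tested directly. In 12 of 11543 genes (0.104%) the caudal and rostral differences differed, 3 with the caudal one higher and 9 lower. Fitted on only the 12 day 30 arrays of both arms and segments, limma called 0 (2318 at an unadjusted p under 0.05), and with a replicate block in that fit also 0 (2355). The labels do not say whether both segments came from the same animals, and the test treats them as independent. Dennd1a, which activates a GTPase of endosomes, read 7.36, 7.36 and 7.19 with the NT-3 tube and 7.40, 7.60 and 7.82 with the tube alone below the gap, and 7.75, 7.72 and 7.72 against 7.10, 7.28 and 7.42 above it. The effects differed by -0.77 (SE 0.14; limma adjusted p = 0.00455). Ctnna2, for the neuronal alpha-catenin, and Nptxr, for the neuronal pentraxin receptor, followed the same pattern, with differences of -0.76 and -0.89. Both were close to the threshold (limma adjusted p = 0.0498 and 0.0471).

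Ehd4, Nfib and Ccn4 went the other way, and in the caudal tube alone arm each was lowest on replicate 3: Nfib, a glial transcription factor gene, read 9.44, 9.19 and 8.41 there against 9.41, 9.22 and 9.41 with the NT-3 tube. The count was 0 without caudal tube alone replicate 3, 0 without caudal NT-3 replicate 3, and 0 without rostral tube alone replicate 1. It was 1 or 2 without rostral NT-3 replicate 2 or 3 or caudal NT-3 replicate 1 or 2, and 43, 120 and 41 without rostral NT-3 replicate 1 and caudal tube alone replicates 1 and 2. The matrix list had 0 members among the 12, so the larger rostral median was not shown to differ gene by gene.

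Whether day 30 differed from its neighbouring days was tested against the mean of the caudal differences at days 20 and 60. In 6 of 11479 genes (0.0523%) the day 30 difference was the higher one: RT1-CE10, Depp1, Phgr1, Krt71, Fubp3 and C16h8orf48. Phgr1 differed by 0.50 at day 30, -0.04 at day 20 and -0.14 at day 60, and Krt71 by 0.55, 0.03 and -0.25 (difference from the mean 0.59 and 0.66; limma adjusted p = 0.0366 for both). Depp1 differed by 1.12, -0.40 and -0.95. None of the 4 genes called lower at day 30 passed this test. The count was 0 without NT-3 day 20 replicate 1, NT-3 day 30 replicate 2, tube alone day 20 replicate 3 or tube alone day 60 replicate 2. It was 1 to 3 without tube alone day 30 replicate 1 or 2, day 60 replicate 3 or day 20 replicate 2, or NT-3 day 60 replicate 1. It was 12 without NT-3 day 20 replicate 2 and 18 without tube alone day 30 replicate 3. The median of the matrix list was -0.51 at day 30, -0.19 at day 20 and -0.40 at day 60.

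RT1-CE10 is an MHC class I gene. On the day 30 caudal arrays it was high in both tube arms, at 11.48, 11.64 and 11.16 against 10.99, 11.07 and 11.07, and in lesion control (11.04 to 11.12), while normal cord read 6.46 to 6.66. At day 20 it was low in both arms (means 7.36 and 7.12), and at day 60 low with the NT-3 tube (7.43) and high with the tube alone (10.28). The day 30 arms were thus at like levels of this gene, with a difference of 0.38 (limma adjusted p = 0.583), and its place among the 6 came from day 60. Fubp3 also differed less at day 30 (0.29) than at day 60 (-0.41), with -0.14 at day 20. A second class I gene, RT1-CE12, read 12.52, 12.57 and 12.40 against 12.15, 12.24 and 12.52 at day 30. The level of RT1-CE10 changed between whole groups of arrays, and the part of such a division in the day comparison was not tested.

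**Figure D5:**
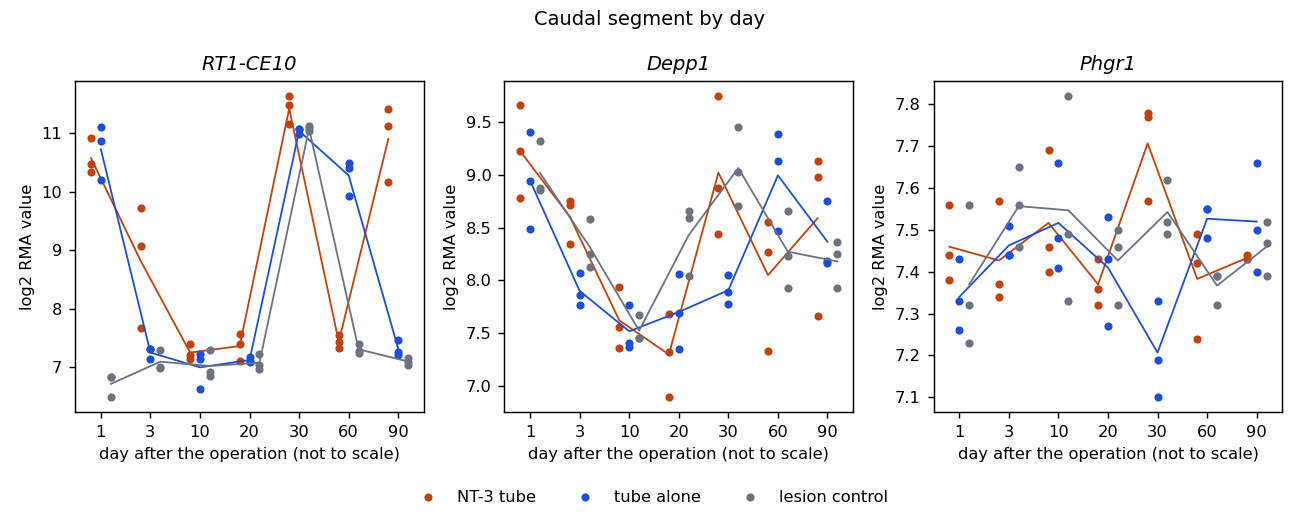
Log2 RMA values in the caudal segment at each of 7 days (days evenly spaced, not to scale) for RT1-CE10, Depp1 and Phgr1; points are arrays, lines join arm means, 3 arms of 3 arrays. At day 30 all 3 arms are high for RT1-CE10, the tube alone arm is lowest for Depp1, and the NT-3 and tube alone arms are farthest apart for Phgr1. The vertical axes do not start at 0.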

How the data were processed

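The authors deposited log2 values made with Affymetrix Expression Console and RMA, per the submitters' processing notes, for 31099 probe sets; no label or file used here names a scan batch. RMA sets all arrays to 1 distribution, so a change in total RNA is not seen. Of the probe sets, 20832 have 1 gene symbol, 436 several and 9831 none in the platform table; the 14218 genes were each represented by the probe set with the highest mean over 167 cord arrays. Genes with a group mean of at least 6.55 (40th percentile) were tested with limma 3.58.1 (R 4.3.3), with a mean per arm and day over 66 caudal and normal arrays, and 65 rostral and normal arrays for the rostral contrast. The analysis was checked on simulated data. Genes named were those called with arms that did not overlap, filled to 12 per direction by the largest differences at an unadjusted p under 0.05, plus neurotrophin genes, RT1-CE10, RT1-CE12 and up to 5 per direction in tests of differences. Members and lists were chosen with earlier results of these data known. Alternatives covered filters, normalization, variance model, array weights, arrays fitted, pairing, probe sets, size and single arrays.

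Same-numbered NT-3 and tube alone arrays deviated from their arm means with correlations of -0.12, -0.09 and -0.31, so the numbers were not taken as pairs. Between segments the same-numbered correlations were 0.13, 0.40 and 0.39 with the NT-3 tube but -0.19, -0.19 and -0.11 with the tube alone. The highest correlation was with the same number for NT-3 numbers 2 and 3, and for no tube alone number. These were not taken as pairs either, though deviations of 3 arrays per group cannot settle whether pools share animals.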

Additional observations from a re-analysis of the deposited data

Results flagged for a closer look

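The effect of the NT-3 tube against the tube alone at day 30 differed between the caudal and rostral segments in 12 genes by limma's test of the difference (adjusted p of 0.05). The caudal effect was the lower one for Nptxr (-0.89), Wdr35 (-0.83), Stk35 (-0.79), Dennd1a (-0.77), Ctnna2 (-0.76), Adcyap1r1 (-0.73), Trappc14 (-0.61), Prickle2 (-0.54) and Synrg (-0.46). It was the higher one for Ehd4 (0.97), Nfib (1.05) and Ccn4 (1.40). Most lay just under the threshold: limma adjusted p was 0.00455 for Dennd1a, 0.0243 for Ccn4, 0.0471 for Nptxr and 0.0498 for the rest.

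The caudal effect at day 30 differed from the mean of its day 20 and day 60 values in 6 genes by the same kind of test: Fubp3 (0.56), Phgr1 (0.59), Krt71 (0.66), C16h8orf48 (0.67), RT1-CE10 (1.69) and Depp1 (1.79).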

How the results depend on the processing

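No called gene changed direction. Of the named genes that did not pass, Bdnf (0.07) and Ntrk3 (0.25) read -0.08 and -0.07 with array weights. Without tube alone replicate 3, Bdnf, Ntrk3, Ehd4 and Ntrk2 went to -0.02, -0.23, -0.05 and 0.02, and Bdnf was -0.04 without NT-3 replicate 3. The replicate block was always fitted on only the groups in the contrast, so 2 choices changed together. The 6 caudal calls became 16 with no filter on dim genes, 1051 with array weights, 0 with only the groups in the contrast, 0 with a replicate block, 13 with the mean of all probe sets and 1 with a 2-fold minimum (0 to 24 leaving out 1 array; 9, 4 of them higher, after a second quantile normalization, 4 of the 9 shared). The rostral count of 2264 became 5768 with array weights and 142 with a 2-fold minimum (657 to 3061); the replicate block gave 2119. The 12 differences between segments became 2, 1, 7, 2346, 0, 0, 3 and 2 with no filter, the stricter filter, second quantile normalization, array weights, only the groups, the replicate block, mean probe sets and the 2-fold minimum (0 to 120). The 6 differences between days became 1546 with array weights, 1 with only the groups, 1 with the replicate block and 2 with the 2-fold minimum (0 to 18). The NT-3 tube against lesion control gave 702, 5 and 57 calls with array weights, only the groups and the replicate block (0 to 1). The tube alone against lesion control gave 2 with no filter, 2 after second quantile normalization, 1061 with array weights and 0 with only the groups, the replicate block, mean probe sets or the 2-fold minimum (0 to 119). The cause was not tested. Over the named genes, 484 of the alternative values kept their side of the threshold, 45 lost it and 25 gained it. Most that kept it were of genes never called, and only the 6 called genes could lose it. Phgr1 stayed called in 9 of 15 alternatives, Hmcn1 and Pkd2 in 8 of 15, and F2r in 7 of 15. Krt71 did so in 7 of 14 and Ubtd2 in 5 of 15. Precision is limited by 3 pools per arm.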
